A study of Homo sapiens with 6 samples.

Results

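The genes described here are 10 neuronal microtubule and growth cone genes: DCX, DCLK1, MAP1B, MAP2, MAPT, STMN1, STMN2, STMN4, TUBB3 and GAP43. They were taken by gene name from the 19937 gene rows of the deposited RNA sequencing table, and each name stood on 1 row. The libraries come from SK-N-BE(2), an established MYCN-amplified human neuroblastoma line of sympathetic origin, in which the study knocked out GPR91, the succinate receptor encoded by SUCNR1. One group of 3 libraries is titled sgcon and the other group of 3 is titled sgGPR91. The genotype tags contradict the titles, because the sgcon libraries carry the tag GPR91 knockout and the sgGPR91 libraries the tag Control. Groups are called by their titles here, and each direction turns around if the tags are right. Both groups were exposed to DOX, so no untreated level was analysed here. One field gives doxorubicin at 100 nmol/L for 48 hours, and another gives DOX at 1.5 µg/ml for 48 hours. Whether the edited cells were 1 clone or a pool is not stated in the labels.

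Microtubules are hollow polymers of alpha and beta tubulin that grow and shrink at their ends, and a neurite extends only while enough of them are stabilised behind its moving tip, the growth cone. Structural microtubule-associated proteins and doublecortins bind along the polymer and stabilise it, stathmins bind free tubulin and promote disassembly, and GAP-43 sits under the growth cone membrane. Neuroblastoma cells keep many of these neuronal transcripts from the sympathetic lineage, and several are used as markers of neurite outgrowth in such lines.

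Total counts ran from 7070189 to 10252425 reads per library, with the lowest in sgcon replicate 3. SUCNR1 had 3 reads over the sgcon libraries and 1 over the sgGPR91 libraries, too few to tell which label is correct. MYCN, the amplified gene of the line and 1 of its markers, was at 2769 ± 132.7 CPM in sgcon and 1690.4 ± 150.4 CPM in sgGPR91, after scaling by the trimmed mean of M-values (TMM), which evens out library composition, and it fell by 0.71 on the log2 scale (edgeR adjusted p = 7.281e-06). All 13 genes chosen as markers of sympathoadrenal neuroblastoma, with earlier results of these data known, were expressed. Their summed level was 6550 to 6940 CPM (counts scaled to the library total) in sgcon and 4630 to 4916 CPM in sgGPR91. Of those 13 genes, 9 were called lower and 2 higher in sgGPR91, a share of 84.6% against 41.1% of all genes tested, and their part in the results below was not tested. Of 9 blood and endothelial markers 4 were at 0 in every library, and the 9 summed to 0.878 to 2.53 CPM in sgcon and 2.44 to 4.17 CPM in sgGPR91. Only CD14 among them had enough reads to be tested. It was called higher, at 0.536 ± 0.317 and 1.79 ± 0.414 CPM (log2 fold change 1.72, edgeR adjusted p = 0.009364). Of 14 mesenchymal and Schwann cell markers, 10 passed the filter on low counts. Their sum was 1059 to 1125 CPM in sgcon and 968.1 to 981.7 CPM in sgGPR91, with CDH19 at 0 in every library. Among those 10 genes, 2 were called higher and 3 lower.

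Promoter stretches are shown for 3 of the genes. GAP43 and DCLK1 were picked among the genes that rose, and MAP1B, which also rose, is not printed. STMN1, which did not pass the test, is shown because 1 of its entries holds CACGTG, the hexamer best known from MYC-family proteins. The stretches come from RefSeq on GRCh38.p14 and read 5′ to 3′ on the gene's strand. Bases that GENCODE 29 counts as exon of the gene were left out. Capitals mark E-boxes, the hexamer CANNTG that basic helix-loop-helix factors bind, which reads the same on both strands. The form CACGTG is included in CANNTG.
GAP43, chr3:115623260-115623323, plus strand: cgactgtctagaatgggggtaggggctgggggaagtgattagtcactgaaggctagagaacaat
DCLK1, chr13:36131383-36131632, minus strand: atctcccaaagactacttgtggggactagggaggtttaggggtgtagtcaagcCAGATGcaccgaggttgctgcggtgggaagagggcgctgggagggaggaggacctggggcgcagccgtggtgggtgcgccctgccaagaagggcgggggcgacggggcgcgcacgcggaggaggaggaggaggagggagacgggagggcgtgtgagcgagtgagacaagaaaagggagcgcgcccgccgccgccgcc
STMN1, chr1:25906467-25906669, minus strand: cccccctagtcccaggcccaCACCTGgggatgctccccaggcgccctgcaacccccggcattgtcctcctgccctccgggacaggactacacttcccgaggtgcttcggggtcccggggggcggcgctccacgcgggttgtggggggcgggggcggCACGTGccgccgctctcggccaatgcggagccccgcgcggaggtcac

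The GAP43 stretch of 64 bases, from base 250 to base 187 before the start, held no match. The GAP43 bases nearer the start were not searched. Of the 35116 promoter entries, 22.5% held CANNTG in the same 64 bases. The DCLK1 stretch, the 250 bases before its start, held 1 match, CAGATG at base 197 before the start, and 61.8% of entries held CANNTG in that window. The STMN1 stretch of 203 bases lies within the listed gene, before a RefSeq start at 25906419, and was chosen among its 3 entries for its matches, since the other STMN1 stretches held 0. It held CACCTG and CACGTG, at bases 230 and 94 before its start. CANNTG was in 55.1% and CACGTG in 4.62% of entries over the same 203 bases. Not printed are 2 further DCLK1 stretches with 1 and 0 matches, and a MAP1B stretch, bases 250 to 160 before its start, with 0. Also left out is a stretch of 250 bases before a DCX start inside the listed gene, with 3 matches. The MAP2 and TUBB3 stretches held 0. These matches describe letters in a window and not binding. Of the 10 genes, 7 had an entry in the table, and MAPT, STMN2 and STMN4 had none.

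All 10 genes passed the filter on low counts, and 7 of them differed between the groups by edgeR's quasi-likelihood test at a Benjamini-Hochberg adjusted p under 0.05, which is what called means throughout. GAP43, MAP1B, DCLK1 and MAPT rose in the libraries labelled sgGPR91, and DCX, MAP2 and STMN2 fell. STMN1, STMN4 and TUBB3 did not pass. The background was high, since 41.1% of the 12701 genes tested were called, 20.2% higher and 21.0% lower. The median log2 fold change was 0.23 over the 10 genes and -0.01 over all genes tested. For 6 of the 10 genes every library of one group lay beyond every library of the other, against 50.9% of all genes tested. The 10 genes moved in both directions, so no common direction described them. Fewer cells of a type and less RNA per cell cannot be told apart in bulk libraries.

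**Figure D1:**
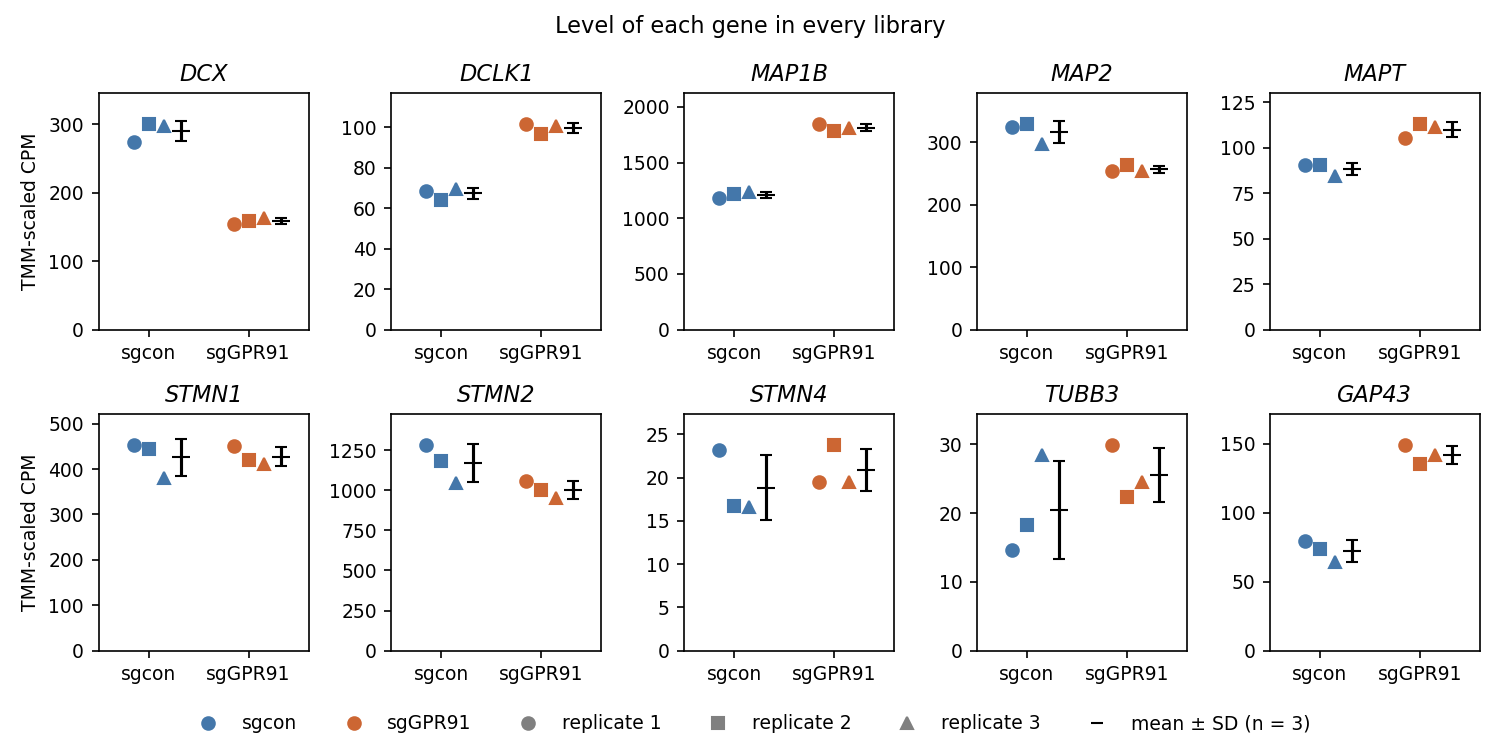
Level of each gene in TMM-scaled CPM on a linear axis from 0, with 1 point per library (colour for the group, shape for the replicate) and the mean ± SD of 3 libraries beside them. The groups are apart for DCX, DCLK1, MAP1B, MAP2, MAPT and GAP43 and overlap for STMN1, STMN2, STMN4 and TUBB3.

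Levels differed widely between the genes and are given as FPKM (reads scaled to the listed gene length and the library total). The order of the genes thus depends on the listed lengths. These were 6247 bases for STMN1 and 7421 for TUBB3, but 2042 for STMN2 and 1901 for GAP43. Whether they match the transcripts made in these cells was not checked. STMN2 stood first, at 569.7 ± 47.1 FPKM in sgcon and 491.0 ± 23.2 FPKM in sgGPR91 (SD, n = 3), above 99.8% of tested genes. MAP1B followed, at 96.2 ± 4.09 and 144.9 ± 1.42 FPKM. STMN1 and GAP43 came next, and their library ranges overlapped, because GAP43 lay below STMN1 in sgcon (41.3, 38.2 and 34.4 in its libraries against 67.8 ± 5.09 FPKM) and above it in sgGPR91 (74.8 ± 3.05 against 68.5 ± 2.73 FPKM). MAP2 and DCX traded places in their means, although their library ranges overlapped in sgcon, with DCX at 28.4 ± 1.76 and MAP2 at 26.7 ± 0.936 FPKM in sgcon, and DCX at 15.6 ± 0.566 and MAP2 at 21.8 ± 0.610 FPKM in sgGPR91. MAPT, STMN4 and DCLK1 had mean levels of 6.58, 6.02 and 5.77 FPKM over all libraries, and neighbours in that order overlapped. TUBB3 was last at 3.10 FPKM, with its highest library at 3.99 and the lowest DCLK1 library at 4.37.

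The doublecortin pair moved in opposite directions. DCX encodes doublecortin, which binds between the protofilaments of microtubules in migrating neurons and is mutated in lissencephaly. DCX (ENSG00000077279, chromosome X, 111293779 to 111412429, minus strand) was at 273.8, 300.1 and 297.3 CPM (TMM-scaled, as all CPM values of single genes here) in sgcon replicates 1, 2 and 3. Its sgGPR91 libraries were at 154.4, 158.3 and 163.9 CPM, all below every sgcon library. The fall was 1.83-fold, with a log2 fold change of -0.87 ± 0.07 (SE) and an edgeR adjusted p of 6.797e-08. It was larger in absolute size than that of 90.5% of tested genes.

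DCLK1 encodes a doublecortin-like kinase, with tandem doublecortin domains in its long form and a kinase domain behind them. DCLK1 (ENSG00000133083, chromosome 13, 35768652 to 36131382, minus strand) was at 68.7, 64.1 and 69.2 CPM in sgcon. The sgGPR91 libraries held 101.4, 96.7 and 100.5 CPM, so the groups were far apart beside a spread of 2.81 and 2.49 CPM (SD, n = 3). The log2 fold change was 0.57 ± 0.07, a 1.48-fold rise (edgeR adjusted p = 1.314e-05). The counts sum over isoforms, so long and kinase-only forms of DCLK1 are not separated. DCLK2, another doublecortin-like kinase gene, was picked out after seeing its value and fell by 0.27 on the log2 scale (edgeR adjusted p = 0.03331). DCLK3 had only 3 to 7 reads per library and was not tested.

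Among the structural microtubule-associated proteins, MAP1B and MAPT rose and MAP2 fell. MAP1B is the early, axon-enriched member that is abundant while neurites grow. MAP1B (ENSG00000131711, chromosome 5, 72107234 to 72209565, plus strand) was at 1179, 1215 and 1236 CPM in sgcon. Its sgGPR91 libraries were at 1844, 1783 and 1814 CPM, each above all sgcon libraries. The rise was 1.50-fold, with a log2 fold change of 0.58 ± 0.07 and an edgeR adjusted p of 1.103e-05. MAP1B had the smallest relative spread of the 10 genes, 2.40% of the mean in sgcon and 1.69% in sgGPR91.

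MAP2 is known as the dendritic and cell body counterpart of tau. MAP2 (ENSG00000078018, chromosome 2, 209424047 to 209734118, plus strand) was at 324.2, 328.9 and 297.1 CPM in sgcon. In sgGPR91 it was at 253.8, 263.7 and 254.0 CPM, all lower than the lowest sgcon library. The fall was 1.23-fold, with a log2 fold change of -0.30 ± 0.07 (edgeR adjusted p = 0.002117).

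MAPT encodes tau, which stabilises axonal microtubules and aggregates in Alzheimer disease. MAPT (ENSG00000186868, chromosome 17, 45894527 to 46028334, plus strand) was at 90.4, 90.3 and 84.3 CPM in sgcon. The sgGPR91 libraries were at 105.4, 112.9 and 111.6 CPM, all higher than the highest sgcon library. The rise was 1.24-fold, with a log2 fold change of 0.31 ± 0.07 (edgeR adjusted p = 0.001943). STH, a short gene listed inside MAPT, had 19 reads in all libraries together, and GENCODE 29 places an antisense gene over MAPT. The labels do not say whether counting used strand, so reads of the antisense gene cannot be told apart from those of MAPT.

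Among the stathmins, STMN2 passed the test and STMN1 and STMN4 did not. STMN1 encodes stathmin itself, a tubulin-sequestering phosphoprotein of dividing cells and young neurons. STMN1 (ENSG00000117632, chromosome 1, 25884181 to 25906991, minus strand) was at 452.3, 445.1 and 379.4 CPM in sgcon and 450.5, 419.2 and 412.3 CPM in sgGPR91. The groups overlapped, and the log2 fold change was 0.01 with a 95% interval from -0.16 to 0.17 (edgeR adjusted p = 0.9656). Its sign depended on the libraries, at -0.07 without sgcon replicate 3 and -0.04 without sgGPR91 replicate 1.

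STMN2, also called SCG10, is the membrane-bound neuronal stathmin of growth cones. STMN2 (ENSG00000104435, chromosome 8, 79611117 to 79666158, plus strand) was at 1280.0, 1182 and 1045 CPM in sgcon. The sgGPR91 libraries were at 1056, 998.8 and 948.4 CPM, and sgGPR91 replicate 1 lay just above sgcon replicate 3. The log2 fold change was -0.22 ± 0.09, a 1.17-fold fall close to the threshold (edgeR adjusted p = 0.04483). The call ended in 8 of 14 other settings, namely without sgcon replicate 1 or 2 (edgeR adjusted p = 0.1571 and 0.1204), without sgGPR91 replicate 1, 2 or 3 (0.05102, 0.1261 and 0.2093) and in the 3 limma runs on FPKM (0.106, 0.1014 and 0.3097). The direction was down in all 14.

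STMN4 is a further neuronal stathmin, and it was scarce. STMN4 (ENSG00000015592, chromosome 8, 27235323 to 27258420, minus strand) was at 23.2, 16.7 and 16.6 CPM in sgcon and 19.5, 23.7 and 19.5 CPM in sgGPR91. The groups overlapped, and the log2 fold change of 0.15 had a 95% interval from -0.17 to 0.46 (edgeR adjusted p = 0.4532). With 120 reads in its thinnest library, counting alone gives a spread of 9.13% there. A difference of the size seen for MAPT lies inside that interval.

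TUBB3 encodes class III beta-tubulin, the isotype whose antibody is a standard stain for neurons. TUBB3 (ENSG00000258947, chromosome 16, 89921392 to 89938761, plus strand) was at 14.7, 18.3 and 28.4 CPM in sgcon and 29.9, 22.3 and 24.5 CPM in sgGPR91. The sgcon libraries spread by 34.9% of their mean (SD), against 15.2% in sgGPR91 and a counting spread of 8.74% in the thinnest library. The log2 fold change of 0.34 ± 0.19 did not pass (edgeR adjusted p = 0.154, 95% interval from -0.05 to 0.74). Without sgcon replicate 3, the library with the highest TUBB3 level of its group, it was 0.63 and passed (edgeR adjusted p = 0.00166). Without sgcon replicate 1 it was 0.15 (edgeR adjusted p = 0.4951), and without sgGPR91 replicate 1 it was 0.21 (edgeR adjusted p = 0.4728). A deposited row for an MC1R-TUBB3 readthrough gene overlaps TUBB3 from 89919165 to 89936092 and had 0 reads in every library. The 131 to 263 reads of TUBB3 put it above only 30.2% of tested genes per listed length. TUBB, another beta-tubulin gene, was at 276.7 FPKM over all libraries. Beta-tubulin genes share long coding stretches, so the split of reads among them is uncertain.

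GAP43 rose most of the 10. It encodes GAP-43, a palmitoylated protein kinase C substrate of the growth cone membrane that is a classical marker of axon growth and regeneration. GAP43 (ENSG00000172020, chromosome 3, 115623510 to 115721490, plus strand) was at 79.9, 73.7 and 64.1 CPM in sgcon. In sgGPR91 it was at 148.9, 135.2 and 141.6 CPM, so the lowest of these lay well above the highest sgcon library. The rise was 1.95-fold, with a log2 fold change of 0.96 ± 0.08 and an edgeR adjusted p of 1.838e-07. It was larger in absolute size than that of 92.2% of tested genes.

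Each library was at the edge of its group for some of the genes. Within sgcon, replicate 3 held the lowest level for 6 of the 10 genes (MAP2, MAPT, STMN1, STMN2, STMN4 and GAP43) and the highest for 3 (DCLK1, MAP1B and TUBB3), while replicate 1 held the lowest for 3 and the highest for 5. Within sgGPR91, replicate 1 held the highest level for 6 of the 10 (DCLK1, MAP1B, STMN1, STMN2, TUBB3 and GAP43) and the lowest for 3, while replicate 2 held the lowest for 4 and the highest for 3. Without sgcon replicate 3, 8 of the 10 genes were called, and without any other single library 6 were. The share called of all genes tested moved the same way, at 44.3% without sgcon replicate 3 and 31.9% to 38.9% without each of the others. The calls for DCX, DCLK1, MAP1B, MAP2, MAPT and GAP43 held in all 14 other settings.

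**Figure D2:**
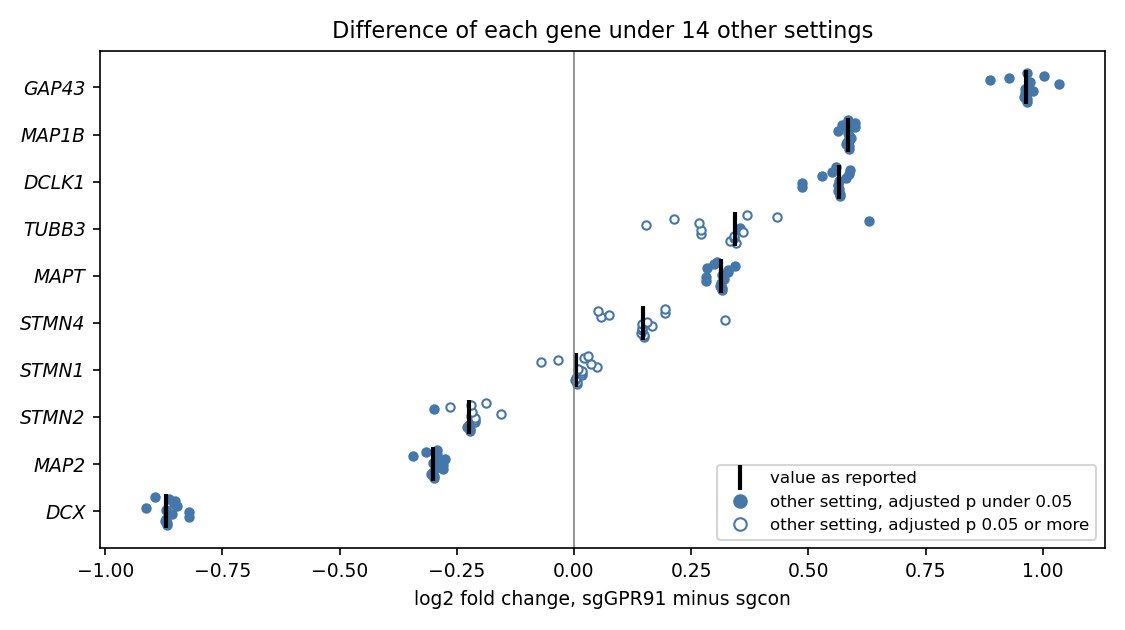
Log2 fold change (sgGPR91 minus sgcon) of each gene as reported (black bar) and under 14 other settings (circles, filled where the adjusted p was under 0.05), which change the scaling, filter, test or unit, add a replicate block or leave out 1 library. GAP43 stays between 0.89 and 1.03 and DCX between -0.91 and -0.82, whereas STMN2 is open in 8 settings and TUBB3 is filled in 2.

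The make-up of the group shifted within each library. Together the 10 genes took 0.359% to 0.372% of all counts in sgcon and 0.401% to 0.413% in sgGPR91. STMN2 made up 29.7% to 33.8% of the 10 genes' reads in sgcon and 23.8% to 25.4% in sgGPR91. MAP1B made up 31.1% to 35.1% in sgcon and 44.3% to 45.5% in sgGPR91. So MAP1B and STMN2 held similar numbers of reads in sgcon, and MAP1B held more in all sgGPR91 libraries.

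Ratios between related genes, which do not depend on the scaling between libraries, were compared for 4 pairs. DCX to DCLK1 in FPKM went from 6.12 ± 0.493 in sgcon to 2.26 ± 0.0907 in sgGPR91 (SD, n = 3). MAP1B to MAP2 went from 3.61 ± 0.271 to 6.65 ± 0.248. MAPT to MAP2 went from 0.219 ± 0.00364 to 0.336 ± 0.00939. In each of these pairs the genes were called in opposite directions above, so the shift follows from those results. STMN2 to STMN1 was 8.66, 8.13 and 8.43 in sgcon and 7.17, 7.29 and 7.04 in sgGPR91. The groups were apart for this ratio, and STMN2 alone was also apart in FPKM, though not in TMM-scaled CPM. Each ratio gave p = 0.1 in a two-sided exact permutation test and 0.1 after Benjamini-Hochberg adjustment over 4, which is the smallest p that 3 libraries against 3 allow, so no ratio could pass.

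**Figure D3:**
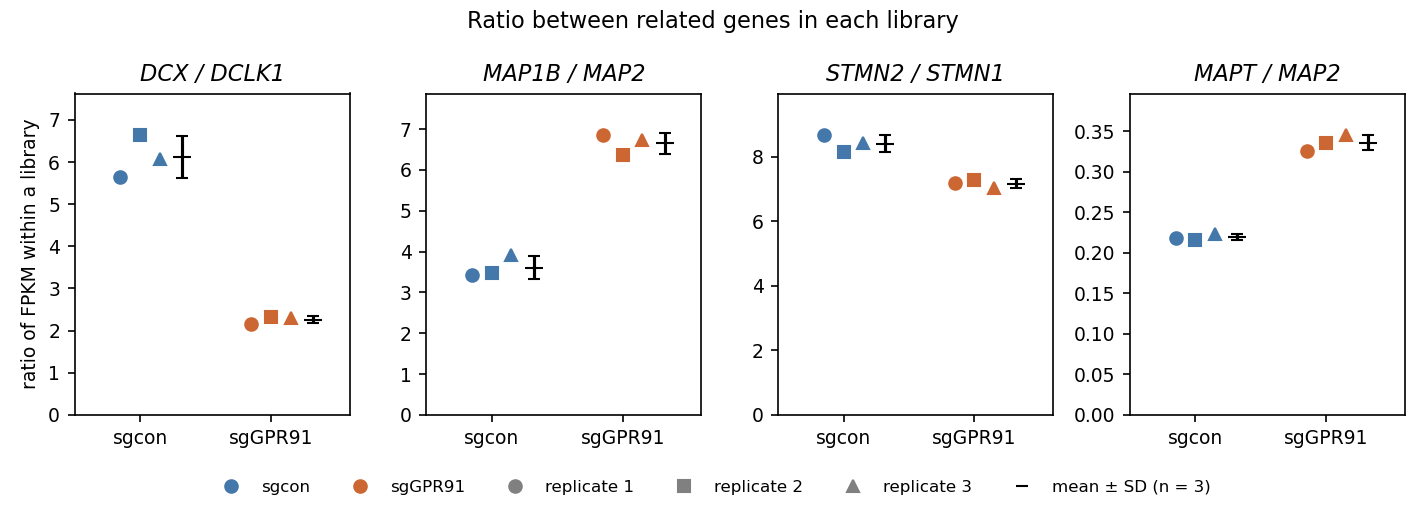
Ratio of deposited FPKM between related genes within each library, on linear axes from 0, with 1 point per library and the mean ± SD of 3 libraries beside them. The groups do not overlap in any of the 4 ratios, with DCX to DCLK1 at 5.65 to 6.63 in sgcon and 2.16 to 2.32 in sgGPR91. Except for STMN2 to STMN1, the paired genes were called in opposite directions, so their separation follows from the single-gene results.

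The levels of chromosomal neighbours were compared with each gene, taking all tested genes whose listed start lay within 5 Mb. Near DCX, 18 neighbours had a median log2 fold change of 0.32, with 10 higher and 3 lower, while DCX fell. Near MAPT, 145 neighbours had a median of -0.20, with 25 higher and 57 lower, while MAPT rose. Over all genes tested, 20.2% were called higher and 21.0% lower. For DCLK1 the 26 neighbours had a median of -0.12, and for MAP2 the 23 neighbours had 0.14, again opposite in sign to the gene. GAP43 and its 33 neighbours had the same sign, at 0.96 and 0.11. MAP1B stood at 0.58 beside a median of -0.02 over 44 neighbours.

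**Figure D4:**
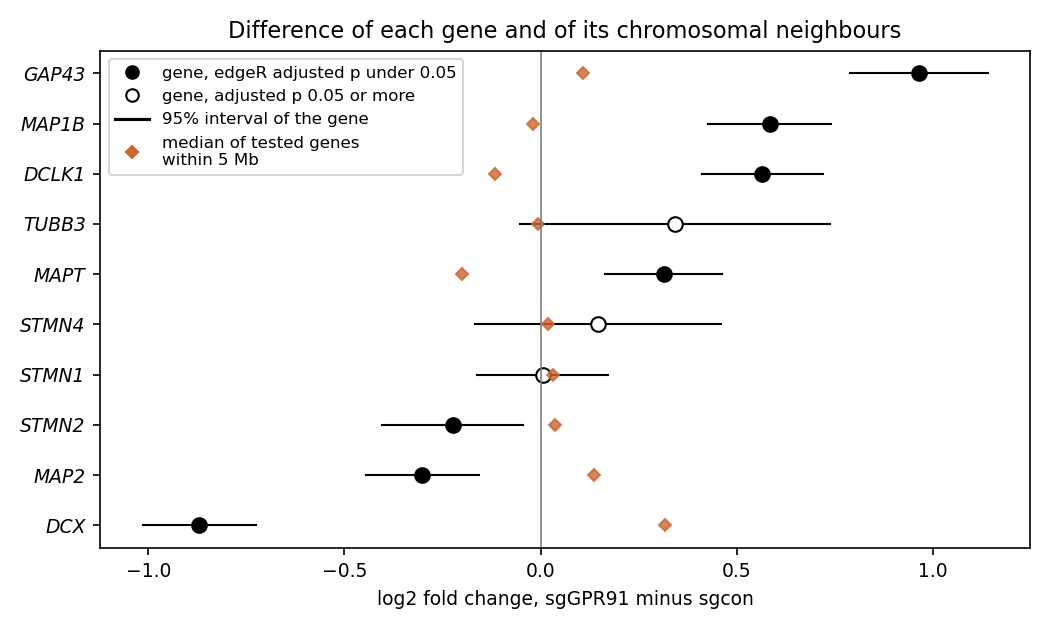
Log2 fold change (sgGPR91 minus sgcon) of each gene with its 95% interval, filled where the edgeR adjusted p was under 0.05, and the median of the tested genes within 5 Mb as a diamond. The diamonds lie between -0.20 and 0.32, and among the called genes GAP43 alone has its diamond on its own side of 0.

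Genes with the most similar pattern over the 6 libraries were sought for the largest riser and the largest faller. For GAP43 they were APLP2, a relative of the amyloid precursor protein gene, ACTR2, a subunit gene of the actin-nucleating Arp2/3 complex, and SARAF, each with a Pearson correlation of log2 CPM of 0.999. For DCX they were CRACD, the copper transporter gene ATP7A and the collagen VI gene COL6A2, also each at 0.999. The correlations describe mainly the step between the groups, since 838 of 10991 genes correlated above 0.95 with GAP43 and 828 with DCX.

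Around the 10 genes, 6 lists of pathway genes were chosen with earlier results of these data known. Their called shares are therefore no neutral comparison with all genes tested. The lists held 174 tested genes, of which 44 were called higher and 46 lower (51.7% called, against the background of 41.1%). Their median log2 fold change was -0.02, against -0.01 over all genes tested. The list of other tubulin genes covers alpha and beta tubulin, the subunits of the polymer, and also gamma, delta and epsilon tubulin. It had 4 higher and 3 lower of 15 tested, a called share of 46.7%, with a median of 0.06. TUBB4A, a neuronal beta-tubulin gene, fell from 12.2 ± 0.656 to 3.33 ± 0.283 CPM, and the epsilon-tubulin gene TUBE1 fell 1.87-fold. TUBA4A fell and TUBA1C rose, at log2 fold changes of -0.58 and 0.87, the second at under 10 CPM in both groups. Without sgcon replicate 3 the lower count was 5 in place of 3. TUBA1A, the main neuronal alpha-tubulin gene and picked after seeing its value, rose from 978.2 ± 79.0 to 1328 ± 81.9 CPM, while TUBB, picked likewise, was at 1169.5 ± 126.2 and 1088 ± 71.0 CPM and did not pass (edgeR adjusted p = 0.3668). The alpha-tubulin genes too are near copies with an uncertain split of reads.

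Of 38 tested genes for other microtubule-associated proteins, 10 were called higher and 12 lower, a share of 57.9% against 41.1% of all genes, with a median of -0.05. MAP1A, the adult counterpart of MAP1B, rose 1.86-fold from 89.5 ± 13.3 to 166.6 ± 3.63 CPM, and MAP6, a protein that protects microtubules from cold, rose 1.90-fold from 94.3 ± 9.39 to 179.9 ± 2.29 CPM. SLAIN1, a plus-end growth factor, fell 4.03-fold from 11.5 ± 1.40 to 2.86 ± 0.153 CPM, and MTUS1 fell 1.72-fold from 441.7 ± 30.8 to 256.3 ± 16.1 CPM. STMN3, the remaining stathmin gene, is given although the naming rule did not pick it, and stood at 93.9 ± 11.4 and 102.2 ± 6.95 CPM and did not pass (edgeR adjusted p = 0.305).

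Enzymes that fold tubulin, modify its tails or cut microtubules had 4 higher and 6 lower of 32 tested, a called share of 31.2% with a median of -0.01. TTL, which adds tyrosine back to alpha-tubulin, rose from 168.3 ± 15.6 to 232.8 ± 3.05 CPM, and VASH1, a carboxypeptidase that removes it, rose from 13.6 ± 3.83 to 24.6 ± 1.51 CPM. The severing enzyme gene FIGN fell from 39.3 ± 3.30 to 24.1 ± 0.760 CPM, and the tubulin cofactor gene TBCD from 137.8 ± 21.7 to 93.9 ± 6.27 CPM. The higher count was 2 without sgcon replicate 2, without sgGPR91 replicate 1 or without sgGPR91 replicate 3.

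Kinases and phosphatases known to act on the encoded proteins had 6 higher and 6 lower of 29 tested, a called share of 41.4% that is near the 41.1% of all genes, with a median of -0.03. MARK1, which phosphorylates tau and MAP2 and loosens them from microtubules, rose 1.61-fold from 36.4 ± 0.713 to 58.7 ± 4.19 CPM. PPP2R2B, a brain regulatory subunit gene of phosphatase 2A, rose 2.10-fold to 14.8 ± 2.20 CPM. BRSK2, a polarity kinase gene, fell 2.51-fold from 43.5 ± 3.89 to 17.3 ± 1.48 CPM, and MAPK10, the neuronal JNK gene, fell 1.62-fold from 32.5 ± 2.78 to 20.1 ± 1.29 CPM. The higher count was 3 without sgcon replicate 2 and without sgGPR91 replicate 1, 2 or 3.

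Growth cone genes had 17 higher and 9 lower of 39 tested, a called share of 66.7% against 41.1% of all genes, with a median of 0.09. CAP2, an actin-recycling protein gene, rose 1.94-fold from 11.9 ± 2.26 to 23.2 ± 0.841 CPM, and SHTN1, the gene of the clutch protein shootin, rose 2.18-fold from 5.15 ± 1.41 CPM. The adhesion gene CNTN1 fell 3.11-fold from 576.5 ± 41.0 to 185.7 ± 4.04 CPM, and the membrane protein gene GPM6B fell 1.88-fold from 18.2 ± 0.781 to 9.65 ± 1.76 CPM. MARCKS, another protein kinase C substrate of the same membrane, and DPYSL3, a collapsin response mediator, both picked after seeing their values, rose with log2 fold changes of 0.50 and 0.54 (edgeR adjusted p = 1.145e-04 and 1.441e-05). BASP1, a growth cone membrane protein with many properties of GAP-43, picked the same way, fell by 0.37 on the log2 scale (edgeR adjusted p = 8.613e-04).

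Genes listed as neuronal RNA and transcription regulators had 3 higher and 10 lower of 21 tested, with a median of -0.19. That is a called share of 61.9% against 41.1% of all genes. Whether they act on the 10 genes in these cells was not tested. MYT1L, a neuronal zinc finger factor gene, fell, with a log2 fold change of -2.81 ± 0.12, from 55.2 ± 1.09 to 7.90 ± 1.44 CPM. INSM1 fell 3.51-fold from 9.95 ± 2.13 to 2.85 ± 0.824 CPM, and the corepressor gene RCOR2 1.86-fold from 233.6 ± 44.5 to 126.1 ± 10.8 CPM. ELAVL4, again picked after seeing its value, rose 1.44-fold from 215.1 ± 10.5 to 309.2 ± 16.6 CPM (edgeR adjusted p = 2.102e-05). It encodes HuD, which is known to stabilise GAP43 transcripts, but a link between the ELAVL4 and GAP43 rises was not tested. The related neuronal genes ELAVL3 and ELAVL2, also looked up afterwards, had log2 fold changes of -0.26 (called, edgeR adjusted p = 0.01513) and -0.20 (not passed, 0.07964). Without sgGPR91 replicate 2 the higher count was 1.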

How the data were processed

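Total RNA of 6 libraries was sequenced after an NEBNext Ultra preparation, per the labels' protocols. The submitters' processing notes name RSEM, HISAT2 and Bowtie2. Their versions and roles and the genome build are not given in the sources used here. The deposited counts are whole reads per gene, and the deposited FPKM values equal the counts divided by listed length and column total (90322 values, largest relative difference 5.11e-15). Coordinates are those of the deposited table; all 10 identifiers are in GENCODE 29 (GRCh38), with the same start for 6 and the same end for 7.

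Genes were filtered with filterByExpr (minimum count 10, minimum total 15), scaled by TMM and tested with edgeR 4.0.16 in R 4.3.3, with p adjusted over 12701 genes. Each SE was derived from the log2 fold change and its F statistic. Alternatives used DESeq2 1.42.0, limma 3.58.1 on log2(FPKM + 1) or log2(FPKM + 0.1), other scalings and filters, a replicate block, and each library left out. In simulated data with 12453 genes tested, 92.3% of 65 genes changed 1.5-fold, 92.4% of 66 changed 2-fold and 100% of 64 changed 4-fold were recovered. Unchanged genes made up 5.61% of calls. Every simulated gene had the same biological spread, 7.56%, and few genes were changed. In the data 41.1% of genes were called and single genes spread more widely, with TUBB3 at 34.9% in sgcon. These rates therefore check the code and do not give the accuracy of this comparison.

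The labels do not say that replicates are separate cultures, so p-values cover only how far these libraries scatter, and that scatter may be technical. Replicates differed beyond sampling noise (chi-square per degree of freedom 1.83 to 9.52). The members and lists were chosen with earlier results of these data known. Beside the 10 genes, the text names up to 4 genes per list, those called with the largest fold change at a mean of at least 5 CPM in a group, and the 3 genes of at least 5 CPM that correlate best with the largest riser and faller. A gene named otherwise is said to be, and 1 gene that the rule picked is not reported here. Summed marker levels are CPM without TMM.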

Additional observations from a re-analysis of the deposited data

How the results depend on the processing

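Over the 10 genes and 14 other settings, 130 of 140 results kept their side of the threshold, and no called gene changed direction. Of the rest, 8 lost the call (all STMN2) and 2 gained it (both TUBB3). For the 24 list genes that the naming rule picked, 334 of 336 results kept theirs, and TBCD and VASH1 lost the call with limma on log2(FPKM + 1) without a filter (adjusted p = 0.08167 and 0.05793). The number of genes called ran from 4108 to 5707 when single libraries were left out, against 5221. With limma on log2(FPKM + 1) and no filter, 1744 genes were called lower, against 2661, out of 19937 genes tested in place of 12701. In that setting the count called higher was 1 among the tubulin enzymes (against 4) and 1 among the neuronal regulators (against 3). With limma on log2(FPKM + 1) with the filter, 3 kinases and phosphatases were called higher (against 6). The cause of these differences was not tested.

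With the replicate number as a block, 5670 genes were called and 8 of the 10, since TUBB3 passed (adjusted p = 0.0487). Deviations of same-numbered libraries correlated at 0.146, 0.0169 and 0.0837. Replicates 1 and 3 of sgGPR91 correlated best with the sgcon library of the same number, and replicate 2 with sgcon replicate 3 (0.0528). Such weak correlations, taken around means of 3 libraries, cannot settle whether the libraries were paired. STMN4 and TUBB3 had the fewest reads of the 10, 120 to 263 per library, and counting spreads cover counting error only.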
